A study of Homo sapiens with 3 samples.

Results

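BCL2L11, BMF, SESN1, ZMAT3 and CDKN1C, 5 genes that act in cell death, stress signalling and cell-cycle arrest, were followed in RNA sequencing of PLC cells, an established human liver cancer cell line. They were chosen by symbol, and each was taken as the sum of its mRNA rows, those with an NM_ accession in RefSeq. They are 5 of 6961 genes with such a row, and all 5 were among the 967 whose mean level was at least 1 CPM, the count scaled to library size. The study asked whether HKDC1, an enzyme of the hexokinase family, and RBBP5, a core subunit of histone H3 lysine 4 methyltransferase complexes, regulate gene expression. Its groups were NTC, the control, shHKDC1, in which HKDC1 was knocked down, and shRBBP5, in which RBBP5 was knocked down, each with 1 library. All 3 groups share the same cell line and the same culture medium, DMEM with fetal bovine serum and antibiotics. Time after knockdown, the hairpins used and whether the cells were clones were not stated in the labels. With 1 library per group no difference has a replicate check and no test between groups was made. Every interval in square brackets is an exact 95% interval for counting error only, taking 4 deposited counts as 1 fragment, and fragments counted without molecular identifiers may be copies of one molecule. Levels are not scaled for length, so they are compared between libraries and not between genes. Where the division of a gene among rows of unlike length differs between libraries, its sum can also differ for that reason, which was not tested.

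BH3-only proteins start mitochondrial apoptosis: their short BH3 helix binds the pro-survival proteins of the BCL2 family and so lets BAX and BAK open the outer mitochondrial membrane. BCL2L11 encodes BIM, which binds all the main pro-survival proteins, and BMF encodes a relative known from death after loss of attachment. SESN1 encodes sestrin 1, a stress protein that restrains mTORC1, and ZMAT3 encodes an RNA-binding zinc finger protein. Both are textbook targets of p53. CDKN1C encodes p57, a CDK inhibitor of the CIP/KIP family, from an imprinted locus. FOXO transcription factors are also known activators of BCL2L11, BMF and SESN1.

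The BH3 core is what BCL2L11 and BMF have in common, so the stretch that encodes it is shown for both, read from the longest GENCODE v29 coding transcript matched to RefSeq for each gene. Capitals mark the 18 bases for leucine, any 3 residues, glycine or alanine, and aspartate, of which 12 are identical between the genes. The core starts at residue 152 of 198 in BCL2L11 and at residue 137 of 184 in BMF.
BCL2L11 BH3 coding stretch: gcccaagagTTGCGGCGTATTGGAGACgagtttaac
BMF BH3 coding stretch: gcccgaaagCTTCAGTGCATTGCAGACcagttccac

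Promoter windows, 250 bases before to 50 bases after a gene's start, were taken from RefSeq on GRCh38.p14. Of the 5 genes 4 had an entry, with 8 windows in all. CDKN1C was not matched. The 3 SESN1 windows are shown because the 3 SESN1 mRNAs start in them, 1 mRNA in each, and had different values. The BCL2L11 window is shown because 15 of its 18 mRNA rows start within 15 bases of the gene start in it. Row starts, here and for SESN1, are those of the matched GENCODE v29 transcript, which several BCL2L11 rows share. Capitals mark GTAAACA, the FOXO core, CCAAT, the NF-Y box, and the p53 half-site consensus, each searched on both strands. The sequences are printed on the gene's strand.
BCL2L11 window, chr2:111120664-111120963, plus strand: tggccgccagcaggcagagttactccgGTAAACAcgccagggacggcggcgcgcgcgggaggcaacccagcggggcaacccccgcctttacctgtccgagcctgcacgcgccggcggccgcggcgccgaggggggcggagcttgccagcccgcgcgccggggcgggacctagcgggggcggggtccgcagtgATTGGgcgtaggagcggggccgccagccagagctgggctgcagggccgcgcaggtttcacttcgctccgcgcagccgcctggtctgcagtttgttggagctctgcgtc
SESN1 window 1, chr6:109094797-109095096, minus strand: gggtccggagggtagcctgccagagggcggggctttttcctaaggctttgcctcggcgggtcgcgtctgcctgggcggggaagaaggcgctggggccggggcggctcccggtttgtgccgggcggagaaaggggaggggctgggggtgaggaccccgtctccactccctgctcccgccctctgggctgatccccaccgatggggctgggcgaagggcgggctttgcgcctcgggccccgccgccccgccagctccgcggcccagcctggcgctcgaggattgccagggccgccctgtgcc
SESN1 window 2, chr6:109009503-109009802, minus strand: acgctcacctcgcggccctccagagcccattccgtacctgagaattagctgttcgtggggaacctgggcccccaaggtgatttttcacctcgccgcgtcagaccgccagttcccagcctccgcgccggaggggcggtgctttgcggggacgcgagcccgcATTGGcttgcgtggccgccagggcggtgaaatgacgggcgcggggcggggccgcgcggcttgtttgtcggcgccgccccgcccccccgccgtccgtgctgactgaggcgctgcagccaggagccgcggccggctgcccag
SESN1 window 3, chr6:109008939-109009238, minus strand: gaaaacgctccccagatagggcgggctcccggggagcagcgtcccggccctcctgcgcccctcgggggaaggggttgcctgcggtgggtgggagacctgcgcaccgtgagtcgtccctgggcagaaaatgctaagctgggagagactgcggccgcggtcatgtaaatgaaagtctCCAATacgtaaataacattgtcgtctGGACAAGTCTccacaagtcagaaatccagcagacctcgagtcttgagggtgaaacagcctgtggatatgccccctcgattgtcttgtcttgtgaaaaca

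GTAAACA stood in the BCL2L11 window and in 0 of the other 7, against 3.42% of all 35116 promoter windows. The p53 half-site stood in SESN1 window 3 alone of the 8, against 6.63% of all windows. CCAAT was in 5 of the 8, against 34.6%. A match describes letters, not a bound site, and a window without a match says nothing about the factor. The BCL2L11 window held 39 CG pairs and the SESN1 windows 28, 38 and 18. The BMF windows held 31 and 1 and the ZMAT3 windows 32 and 2, where the median of all windows was 14.

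The table is a mixed one. Anonymous assembled loci held 99.43% to 99.60% of each library's counts, so named genes are the small remainder. Reads of the 5 genes that were assigned to such loci, if any, were not looked for. HKDC1 and RBBP5 had 0 rows of their own, so the knockdowns could not be checked. Of 14 hepatocyte and liver cancer markers 2 had rows, FGB and F5, and ALB and AFP were not analysed here. Their summed level was 5.92 CPM in the control, 1.58 CPM after HKDC1 knockdown and 5.40 CPM after RBBP5 knockdown. The 1 cholangiocyte marker of 4 with a row, KRT7, was highest in shHKDC1 at 1.87 CPM, with 0.178 CPM in NTC and 0.151 CPM in shRBBP5. Fibroblast markers, 6 of 7 with rows, summed to 0.957, 1.57 and 1.86 CPM with COL1A2 at 0 throughout. PDGFRB made up most of each sum, at 0.607, 1.47 and 1.56 CPM. COL3A1, PDGFRA and DCN were lower in both knockdowns than in NTC and LUM was higher, all at or below 0.241 CPM. Endothelial markers, 5 of 5 with rows, summed to 0.160, 0.799 and 0.163 CPM with KDR at 0. VWF made up most of the sum in shHKDC1, at 0.703 CPM against 0.0172 in NTC, while CDH5 (0.0193 against 0.0516) and PECAM1 (0.0385 against 0.0687) were lower there. Leukocyte markers, 5 of 6 with rows, summed to 0.556, 0.963 and 0.885 CPM with PTPRC and CD3E at 0. The part of these differences in the results below was not tested. In bulk RNA, fewer cells of a type and less RNA per cell cannot be told apart.

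Of the 5 genes 2 stood lower in shHKDC1 than in NTC by the rule used here, a log2 ratio of at least 1 in size with an interval that excludes 0. They were SESN1 and, on its mRNA rows alone, BMF, whose call did not hold when its noncoding row was counted. None of the 5 was called higher. Of all 967 named genes 33.1% were called in this comparison, 24.6% lower (238 genes) and 8.48% higher (82 genes). The split depends on the scaling: total counts gave 343 lower and 59 higher, and upper-quartile factors 183 lower and 103 higher. With noncoding rows added to every gene, 1 of the 5 was called, SESN1, where 32% of 985 genes were called, 24% lower and 8.02% higher. No member was called in shRBBP5 against NTC, where 11.9% of named genes were, 9.41% lower and 2.48% higher. With noncoding rows the count was again 0 of 5, beside 11.2% of genes called, 9.04% lower and 2.13% higher. BCL2L11 was lowest in NTC and highest in shRBBP5, while BMF, SESN1 and ZMAT3 were lowest in shHKDC1 and CDKN1C was highest there.

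**Figure D1:**
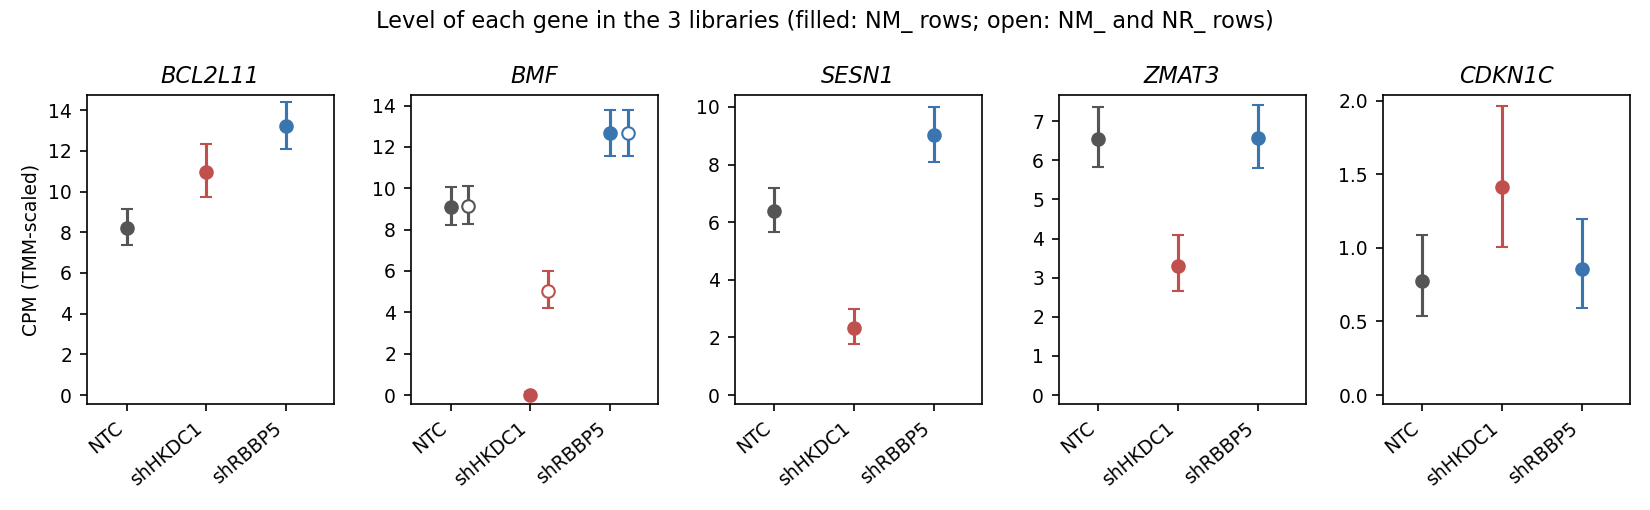
Level of each of the 5 genes in CPM (vertical axes, one scale per gene) in the NTC, shHKDC1 and shRBBP5 libraries, with exact 95% Poisson intervals for counting error. Filled points are the NM_ rows, and open points for BMF add its NR_ rows, which moves BMF in shHKDC1 from 0 to 5.05 CPM.

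BCL2L11 stood at 8.23 CPM in NTC [7.40 to 9.12], 10.97 CPM in shHKDC1 [9.74 to 12.3] and 13.2 CPM in shRBBP5 [12.1 to 14.4]. The NTC interval overlapped neither knockdown, and the shRBBP5 library was the highest. The log2 ratio over NTC was 0.41 [0.19 to 0.64] in shHKDC1 and 0.68 [0.49 to 0.88] in shRBBP5. Neither reached 1. Between the knockdowns the ratio was −0.27 [−0.48 to −0.06]. Scaling by total counts took the shHKDC1 ratio to 0.15 [−0.08 to 0.38], so its distance from 0 depends on the scaling, while the shRBBP5 ratio stayed between 0.62 and 0.71 under the scalings and pseudocounts tried.

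The division of BCL2L11 among its 18 rows differed more than its sum. NM_138621, whose matched transcript encodes 198 residues, held 74.3% of the gene's counts in NTC, 9.66% in shHKDC1 and 26.4% in shRBBP5. NM_006538, a 138-residue form, held 2.51%, 41.4% and 8.08%. The transcripts matched to these rows are 5086 and 1522 bases long, and the part of length in the gene's sum was not tested. NM_138626, matched to a 135-residue form without the BH3 core, had 87 counts in NTC, 0 in shHKDC1 and 554 in shRBBP5. On the highest row alone, NM_138621, the ratio over NTC would be −2.52 [−3.12 to −1.94] in shHKDC1 and −0.81 [−1.12 to −0.51] in shRBBP5, opposite in sign to the gene's sum.

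Of the 18 rows 9 were matched to a coding transcript that holds the 18 capital bases shown above and 9 to one that does not. The 9 with the core held 91.8% of BCL2L11 counts in NTC [88.6 to 94.5], 86.2% in shHKDC1 [81.8 to 90.1] and 62.0% in shRBBP5 [57.7 to 66.1], with Clopper-Pearson intervals. Several RefSeq rows can share 1 GENCODE transcript, whose coding sequence then stood for all of them. Over the 11 rows alone on their transcript the shares were 78.0% [59.3 to 93.2], 75.04% [67.6 to 81.7] and 76.2% [66.6 to 84.3]. These rows leave out NM_138621 and hold 100 of 1437 counts in NTC, 629 of 1139 in shHKDC1 and 387 of 2104 in shRBBP5. They thus describe a small part of the gene in NTC and shRBBP5. The lower share in shRBBP5 therefore rests on rows that share a transcript, such as NM_138626. How reads were divided among overlapping rows is the authors' estimate, and its error is not in these intervals.

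BMF stood at 9.12 CPM in NTC [8.25 to 10.1] and 12.7 CPM in shRBBP5 [11.6 to 13.8] on its 20 mRNA rows. In shHKDC1 all 20 were listed at 0. With 0 set to a floor of 3 fragments, this is 78.9-fold lower than NTC and 110-fold lower than shRBBP5. The intervals of the log2 ratios reached up to −6.00 and −6.47. The noncoding row NR_174114, however, held 524 counts in shHKDC1, 3 in NTC and 0 in shRBBP5. Every BMF count of the shHKDC1 library was in that single row.

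With its 4 noncoding rows added, BMF stood at 9.14 CPM in NTC [8.27 to 10.1], 5.05 CPM in shHKDC1 [4.22 to 5.99] and 12.7 CPM in shRBBP5. The log2 ratio of shHKDC1 over NTC was then −0.86 [−1.15 to −0.57], which is not called, in place of −6.30 at the floor. Total-count scaling took it to −1.12 [−1.42 to −0.83], past the threshold, and upper-quartile scaling to −0.71 [−1.01 to −0.42]. The ratio of shHKDC1 over shRBBP5 was −1.33 [−1.61 to −1.05] and called. In shRBBP5 over NTC BMF was at 0.47 [0.28 to 0.67] on mRNA rows and at 0.47 [0.28 to 0.66] with the noncoding rows. The libraries lay in the order shHKDC1, NTC, shRBBP5 and their intervals did not overlap.

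BMF was not alone in this. In shHKDC1, 4 measured genes had all mRNA rows at 0, and all 4 held at least 12 counts in noncoding rows there. Besides BMF they were TAF4B with 277 counts, ZBTB41 with 318 and ZNF616 with 274, which were named after their values were seen. NTC had 0 such genes and shRBBP5 had 1.

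**Figure D2:**
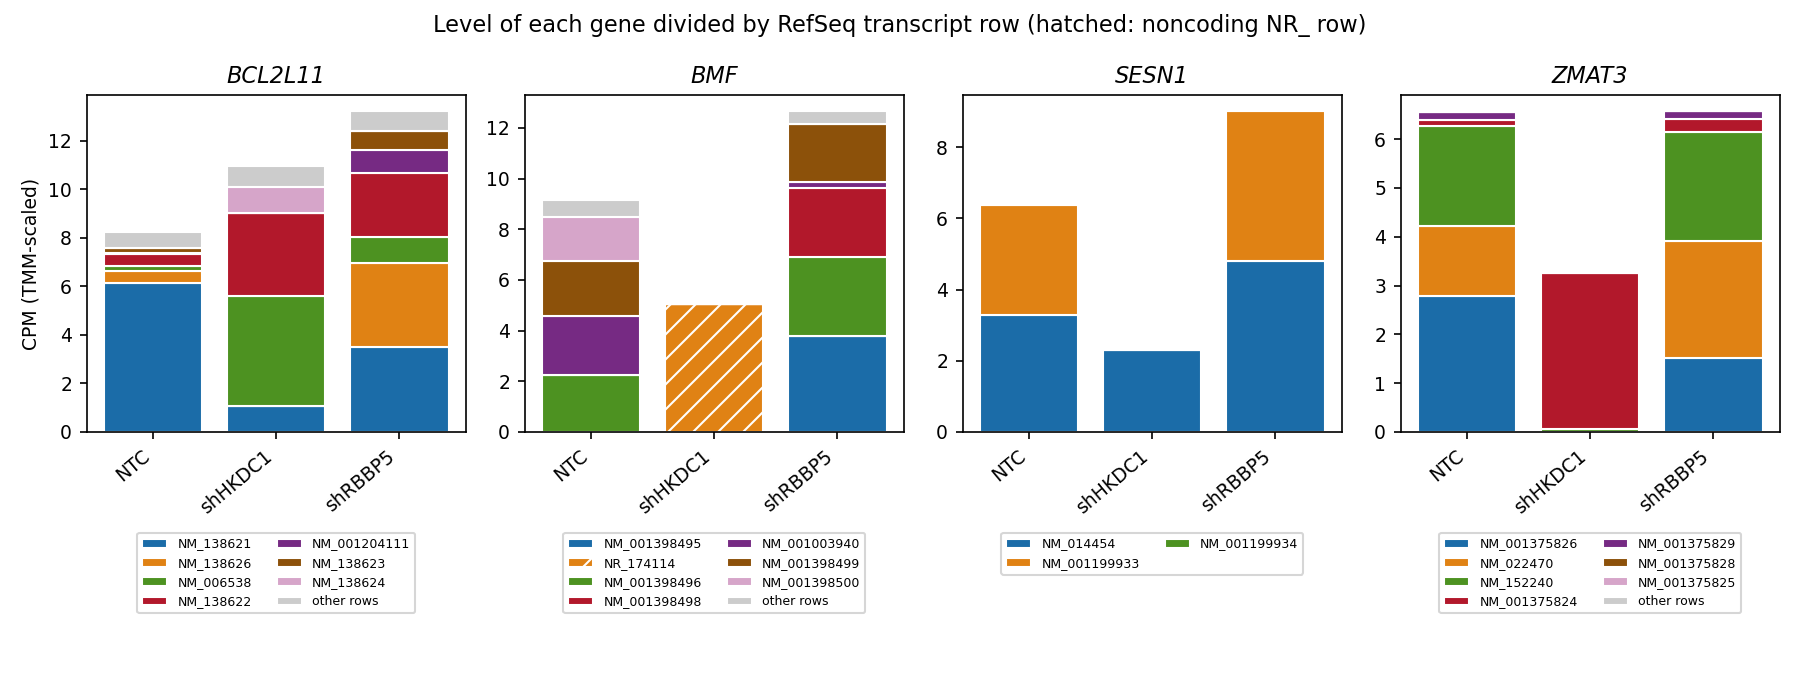
The CPM of BCL2L11, BMF, SESN1 and ZMAT3 in each library (vertical axes), divided by RefSeq row as stacked colours, with rows below the top 7 in grey. BMF in shHKDC1 is the single hatched noncoding row at 5.05 CPM, and ZMAT3 in shHKDC1 is almost all NM_001375824.

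SESN1 stood at 6.39 CPM in NTC [5.67 to 7.19], 2.32 CPM in shHKDC1 [1.76 to 2.98] and 9.01 CPM in shRBBP5 [8.10 to 9.99]. The 3 intervals did not overlap, with shHKDC1 lowest on 60 fragments. Its log2 ratio over NTC was −1.46 [−1.90 to −1.06] in shHKDC1, a 2.75-fold lower level, and 0.50 [0.27 to 0.73] in shRBBP5, which is not called. Between the knockdowns SESN1 was 3.88-fold lower in shHKDC1 (−1.95 [−2.38 to −1.57]). The call against NTC held under every scaling and pseudocount tried, from −1.72 to −1.31.

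The 3 SESN1 mRNAs begin in the 3 windows shown above. NM_014454, which starts in window 1, had 576 counts in NTC, 239 in shHKDC1 and 765 in shRBBP5. NM_001199933, which starts in window 2, had 539, 0 and 671. NM_001199934, which starts in window 3 with the p53 half-site, had 0, 2 and 0 counts, at or under the floor of 12 counts in all libraries. Scaled to library size, the window 1 mRNA had a log2 ratio of −0.52 [−0.97 to −0.07] in shHKDC1 over NTC and was not called. With 0 set to the floor, the window 2 mRNA was 26.7-fold lower there, and the interval of its log2 ratio reached up to −4.42. The call of the gene against NTC thus rests on the window 2 row, and 33.4% of the 2153 mRNA rows that reached 100 counts in some library were at 0 in another, against 1.96% of 1380 genes. In shRBBP5 both rows were above NTC, with log2 ratios of 0.54 [0.22 to 0.86] and 0.45 [0.11 to 0.78].

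ZMAT3 stood at 6.55 CPM in NTC [5.82 to 7.36], 3.29 CPM in shHKDC1 [2.65 to 4.09] and 6.57 CPM in shRBBP5 [5.80 to 7.42]. NTC and shRBBP5 had nearly equal levels with overlapping intervals, and shHKDC1 lay below both. Its log2 ratio over NTC was −0.99 [−1.35 to −0.63] in shHKDC1, just short of the threshold of 1, and 0.00 [−0.24 to 0.25] in shRBBP5. The ratio between the knockdowns was −0.99 [−1.36 to −0.63]. Total-count scaling took the first to −1.26 [−1.61 to −0.90] and the last to −1.19 [−1.56 to −0.83], both past the threshold.

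The rows of ZMAT3 also changed places. NM_001375826, NM_152240 and NM_022470 held 487, 360 and 249 counts in NTC, and 0, 7 and 0 in shHKDC1. NM_001375824 held 18 counts in NTC and 332 in shHKDC1, 97.1% of the gene there. Of the 4 ZMAT3 rows that reached 100 counts in some library, 2 were at 0 in another. Among all 2153 such mRNA rows the share was 33.4%, so this is common in these data. Error in the authors' division of reads among rows was not tested. The 2 noncoding rows of ZMAT3 were at 0 in all 3 libraries, so its sum does not depend on them.

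CDKN1C stood at 0.773 CPM in NTC [0.540 to 1.09], 1.42 CPM in shHKDC1 [1.00 to 1.96] and 0.860 CPM in shRBBP5 [0.591 to 1.19]. Its mean of 1.02 CPM passed the filter narrowly, and shHKDC1 alone was above 1 CPM. Its place among measured genes therefore depends on the library where it was highest. These are 34 to 37 fragments per library, and the intervals of all 3 overlapped. The log2 ratio over NTC was 0.87 [0.16 to 1.59] in shHKDC1 and 0.15 [−0.60 to 0.86] in shRBBP5, and 0.72 [0.03 to 1.46] between the knockdowns. Upper-quartile scaling took the first to 1.02 [0.30 to 1.73], past the threshold. With total counts the mean fell below 1 CPM and the gene left the measured set. Its main row, NM_001122630, led in every library, with 106, 112 and 89 counts in NTC, shHKDC1 and shRBBP5. Scaled to library size these are 0.607, 1.08 and 0.558 CPM.

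**Figure D3:**
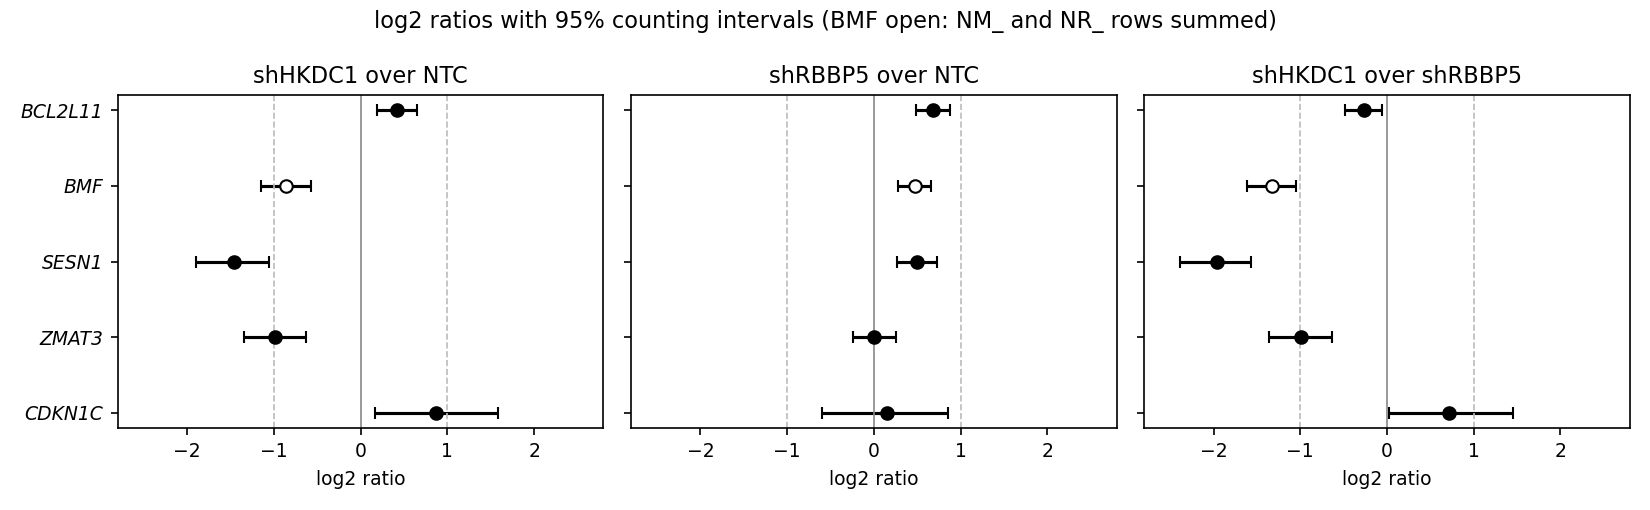
The log2 ratio (horizontal axes) of each gene in the 3 comparisons, with exact 95% counting intervals as bars and dashed lines at −1 and 1. BMF, drawn open, sums mRNA and noncoding rows, and SESN1 is the gene with its whole interval beyond −1 in shHKDC1 over NTC.

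The shift of named genes as a whole sets these ratios in context. In shHKDC1 over NTC the median log2 ratio of the 967 genes was −0.42, and 68.1% lay below 0. SESN1 lay above 12.3% of named genes, ZMAT3 above 24.8% and BCL2L11 above 81.8%. CDKN1C, which passed the level filter through shHKDC1, lay above 90.2%. BMF with its noncoding rows lay above 29.5% of 985 genes counted in the same way. In shRBBP5 over NTC the median was −0.20, and BCL2L11 lay above 94.0% of genes, SESN1 above 90.6%, BMF above 90.1%, CDKN1C above 76.5% and ZMAT3 above 67.0%. All 5 were thus in the upper part of named genes in that comparison, 4 of them with small positive ratios and ZMAT3 at 0.00. Both comparisons use the same NTC library.

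**Figure D4:**
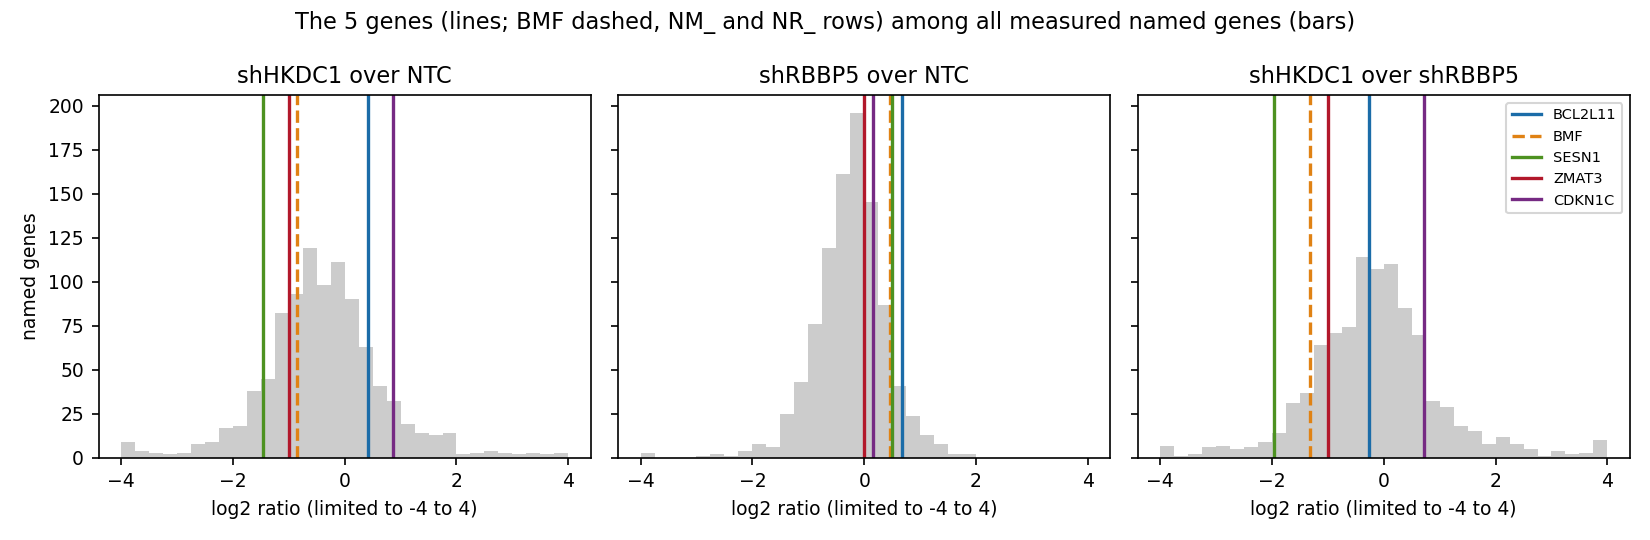
Number of measured named genes (vertical axis) by log2 ratio (horizontal axis, values beyond 4 in size placed at the ends) in the 3 comparisons, with the 5 genes as coloured lines and BMF, dashed, with noncoding rows. SESN1 stands at −1.46 and CDKN1C at 0.87 in shHKDC1 over NTC, and all 5 lie at or above 0.00 in shRBBP5 over NTC.

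In the direct comparison of the knockdowns, SESN1 and BMF were the 2 of 5 genes called lower in shHKDC1, BMF with or without its noncoding row. Of named genes 31.3% were called there, 19.4% lower (188 genes) and 11.9% higher (115 genes), with a median of −0.17. Total counts gave 254 lower and 86 higher, and upper-quartile factors 150 lower and 134 higher. With noncoding rows 30.4% of genes were called, 18.8% lower and 11.6% higher. Both genes were above NTC in shRBBP5 and below it in shHKDC1, while BCL2L11 was above NTC in both.

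Few other genes of these pathways had rows. Of 114 further genes reported on the 10 pathway lists, 16 had an mRNA row and 3 were measured. Among 8 BH3-only genes only BCL2L11 and BMF had rows, so BBC3 and PMAIP1, the main p53-induced ones, were not analysed here. Of 9 other BCL2 family genes 2 had rows and 0 were measured, and of 15 caspase pathway genes 1 had rows and 0 were measured. Of 10 p53 regulators 1 had a row and 0 were measured. The list of 7 CDK inhibitors had CDKN1C alone, and of 5 imprinted genes near it 2 had rows and only CDKN1C was measured. Of 12 sestrin and GATOR genes 2 had rows and only SESN1 was measured. None of 12 cyclins and CDKs had a row.

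Of the 34 p53 targets reported here 7 had rows, and the measured ones were SESN1 and ZMAT3, whose values are given above. They are members themselves, so the 34 reported targets add no other measured gene. A further measured gene of the list is not reported here, and no direction for p53 targets as a group is drawn.

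Of 21 FOXO targets 9 had rows and 6 were measured, with 1 higher and 2 lower in shHKDC1 over NTC on mRNA rows and a median of −0.19. All named genes had 8.48% higher and 24.6% lower there and a median of −0.42. The 2 lower are BMF and SESN1, already counted above, and the call of BMF is lost with its noncoding row. IRS2, an adaptor of the insulin receptor, was higher in shHKDC1 at 5.37 CPM against 2.10 in NTC (1.35 [0.97 to 1.75]). CCNG2, an unconventional cyclin linked to growth arrest, was at 4.21 against 2.79 CPM (0.59 [0.20 to 0.97]) and not called. PDK4, a kinase that shuts off pyruvate dehydrogenase, stood at 1.95 CPM in NTC and 1.12 CPM in shHKDC1 (−0.80 [−1.46 to −0.18]), not called. In shRBBP5 it stood at 0.439 CPM and was called lower (−2.14 [−2.93 to −1.36]). In shRBBP5 the list had 0 higher and 1 lower, with a median of 0.35 beside −0.20 for all named genes. The highest ratios there were those of BCL2L11, SESN1 and BMF, which are members themselves. IRS2, CCNG2 and PDK4 were at 0.22, −0.30 and −2.14, so no direction for FOXO targets is drawn from the median. SESN3, the other sestrin with a row, was at 0.0917, 0.0770 and 0.0878 CPM, near the floor.

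**Figure D5:**
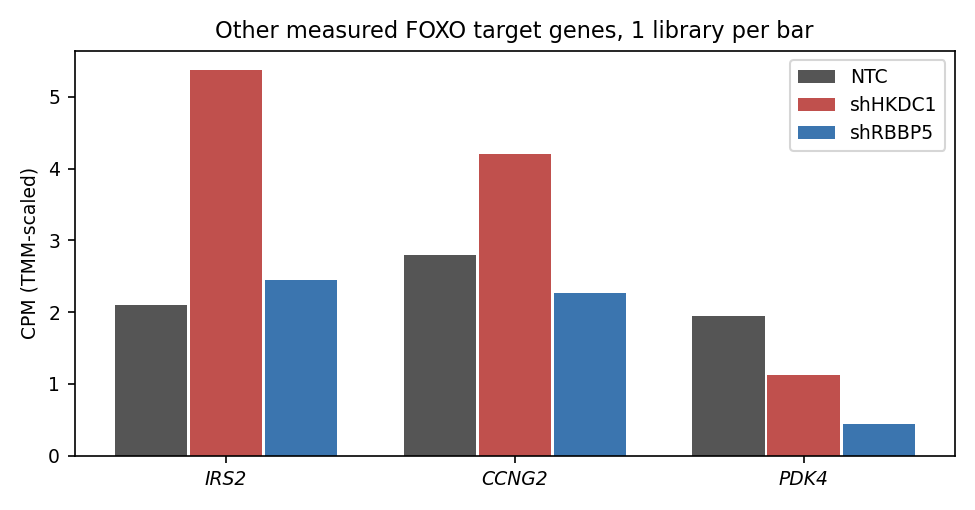
The CPM (vertical axis, from 0) of the 3 measured FOXO target genes that are not among the 5, with 1 bar per library. IRS2 and CCNG2 are highest in shHKDC1, at 5.37 and 4.21 CPM, and PDK4 is highest in NTC, at 1.95 CPM.

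The genes with the most similar ratios were found by distance in the 2 log2 ratios over NTC, among 963 measured genes above 0 in every library. Nearest to SESN1 were L3MBTL1 (distance 0.16), PCBP3 (0.16) and SCARA5 (0.19). Nearest to ZMAT3 were SEMA3B (0.01), PARD3B (0.03) and ZBTB8A (0.05). CDS1 (0.09), TMEM108 (0.14) and TNS1 (0.17) were nearest to BCL2L11, and LZTFL1 (0.05), ASAH2B (0.06) and ETV6 (0.08) to CDKN1C. BMF has no such distance on its mRNA rows, which were at 0 in shHKDC1. The measure runs over 2 ratios that share the NTC library and describes these 3 libraries only. Counting error is not part of it. The intervals of the neighbours' ratios in shHKDC1 over NTC were wider than the distances, such as −1.42 to −0.57 for SEMA3B and −0.21 to 1.06 for CDS1. The order of neighbours is therefore not resolved.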

How the data were processed

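The 3 libraries, NTC, shHKDC1 and shRBBP5, are from RNA of cultured PLC cells. Per the labels' protocols, RNA was extracted with TRIzol. The submitters' processing notes name HISAT2 2.2.1, StringTie 1.3.4, DESeq2 1.28.1 and hg19, with no role for each. The authors deposited estimated counts (expected counts) in 43704 rows, not scaled for depth or length, with totals of 115556160 to 161750310. Neither labels nor header state the annotation, the strand setting or the counting tool. Columns were matched to samples by the abbreviations in their names.

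RefSeq accessions were matched without version to symbols in a GRCh38.p14 table, which named 27354 of 27403 RefSeq rows, and no coordinates of that table were used for the hg19 rows. NM_ rows were summed per gene. All RefSeq transcripts of each of the 5 genes had a row. Low counts pile up at 4, so 1 fragment was assumed to be worth 4 counts in all intervals. CPM used TMM factors over all rows (edgeR 4.0.16 in R 4.3.3), 1.08, 0.899 and 1.03 for NTC, shHKDC1 and shRBBP5. Ratios used a pseudocount of 0.5 counts. Intervals are Clopper-Pearson intervals of a conditional binomial (SciPy 1.17.1). A gene was called at a log2 ratio of at least 1 in size with an interval excluding 0, and measured at a mean of at least 1 CPM. A value of 0 was set to the floor of 3 fragments, 12 counts, or 0.0687, 0.116 and 0.0753 CPM in the same order.

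All 5 genes were named whatever their level, with every other listed gene that was measured and the 3 nearest genes to each. Of the p53 target list, 1 measured gene is not reported here, and the counts of that list and of all listed genes leave it out. The members, lists and rules were chosen with earlier results of these data known. Alternatives, 10 planned and 3 added after BMF's rows were seen, are given in the closing section.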

Additional observations from a re-analysis of the deposited data

Results flagged for a closer look

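The noncoding RefSeq rows of the 5 genes lie outside the sums that define them. One of these rows, NR_174114 of BMF, held 524 counts in the shHKDC1 library against 3 in NTC and 0 in shRBBP5, above the control and above the floor of 12 counts. It scaled to 5.05 CPM in shHKDC1. BMF is therefore at 0 or at 5.05 CPM in that library according to whether this row is counted. The other 3 noncoding rows of BMF and the 2 of ZMAT3 did not pass that floor in a knockdown.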

How the results depend on the processing

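Of the 15 ratios, 5 genes in 3 comparisons, DESeq2 size factors, a pseudocount of 5, leaving the 20 most abundant rows out of the scaling, and taking each count as a read changed no call. The last moved the ratios of BMF at the floor, which falls to 3 counts, to −8.30 against NTC and −8.77 between the knockdowns. The other ratios stayed within their intervals. The filters and the restriction to genes with all transcripts in rows moved no ratio that they left in. Total counts shift every ratio by −0.26 in shHKDC1 over NTC, −0.07 in shRBBP5 over NTC and −0.20 between the knockdowns. They took BCL2L11 to 0.15 and ZMAT3 to −1.26 in shHKDC1 over NTC and ZMAT3 to −1.19 between the knockdowns, the last 2 then called. Upper quartiles shift every ratio by 0.14, 0.02 and 0.12 in the same order and took CDKN1C to 1.02 in shHKDC1 over NTC, then called.

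The choice of rows mattered more. On the highest mRNA row alone, shHKDC1 over NTC gave −2.52 for BCL2L11, −4.27 for BMF at the floor, −0.52 for SESN1, which lost its call, and −4.84 for ZMAT3. BCL2L11 in shRBBP5 over NTC was −0.81. Between the knockdowns the values were −1.71 for BCL2L11, −4.75 for BMF, −1.06 for SESN1 and −4.95 for ZMAT3. With noncoding rows added, BMF was −0.86 against NTC and −1.33 between the knockdowns. With noncoding rows and total counts BCL2L11 was 0.15, BMF −1.12 and −1.52, and ZMAT3 −1.26 and −1.19. With noncoding rows and upper quartiles BMF was −0.71 and −1.21 and CDKN1C 1.02.

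Counts of named genes called moved with the filter. The 82 higher and 238 lower in shHKDC1 over NTC became 461 and 431 with no filter and 2 and 52 at a mean CPM of at least 5. The 24 and 91 in shRBBP5 over NTC became 127 and 257, or 0 and 12. The 115 and 188 between the knockdowns became 565 and 362, or 5 and 33. On the highest row alone 130 were higher in shHKDC1 and 67 in shRBBP5 over NTC. CDKN1C gave no value at a mean CPM of at least 5, with total counts, with or without noncoding rows, or on its highest row alone. The filters change how many genes are counted, 6961 or 220 in place of 967. For the other changes the cause was not tested. Depth limits CDKN1C most, with 34 to 37 fragments a library.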

Other observations

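Below the level filter 13 more genes of the pathway lists had an mRNA row. Those named here were chosen after their values were seen and are part of no count above. With no filter on level, 461 of 6961 named genes were called higher and 431 lower in shHKDC1 over NTC. BCL2A1, a pro-survival BCL2 relative, stood at 1.32 CPM in shHKDC1, with 0.183 CPM in NTC and 0.0753 CPM in shRBBP5. CASP10, an initiator caspase, stood at 0.218, 0.626 and 0.395 CPM in NTC, shHKDC1 and shRBBP5. PLK2, a p53-induced kinase, was at 0.361, 1.42 and 0.414 CPM, with a log2 ratio of 1.97 [1.08 to 2.90] in shHKDC1 over NTC. PHLDA3, a p53-induced inhibitor of AKT, had 0, 52 and 10 counts on mRNA rows and 25 counts on noncoding rows in NTC. FBXO32, a FOXO-induced ubiquitin ligase subunit, stood at 0.395, 0.549 and 0.213 CPM. TP63, a relative of p53, had 25 counts in NTC, 12 in shHKDC1 and 0 in shRBBP5. Scaled to library size it was at 0.143 CPM in NTC and 0.116 CPM in shHKDC1 (−0.28 [−2.88 to 1.98]), which is not called. BCL2L10, a BCL2 relative, had 4, 0 and 15 counts and was not called in shHKDC1 over NTC either. The other 6 held at most 16 counts in any library.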
